A study of Papio hamadryas with 12 samples.

Results

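A set of 178 genes, out of 27533 in the count table, was read almost only in 1 of the 12 libraries of this study, that of a low LDL-C baboon, called baboon 1 here, on the chow diet. Libraries are named by baboon and diet, so this is the 1-chow library. The members were chosen by their measured levels: a gene was taken when it had at least 5 CPM in the 1-chow library and more than 10 times the CPM of each of the other 11 libraries. CPM is the number of counts of a gene for each 1000000 counts of its library, and the library total was taken without the 2 most abundant genes, which together took from 16.3 to 89.3% of the counts of a library. The rule used the levels of all 12 libraries, so these levels are given as a description, with no test. The members were 0.647% of all genes and 1.82% of the 9785 genes with at least 5 CPM in the 1-chow library. The same rule applied to each of the other libraries picked 165 genes in the 6-HCHF library, 1 gene in the 2-chow library and 0 genes in each of the other 9.

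RNA was sequenced from the buffy coat of 6 baboons, 3 with low LDL-C (baboons 1 to 3) and 3 with high LDL-C (baboons 4 to 6), numbered here in no order. Each baboon was sampled on the chow diet, in which fat gave 4% of the calories and cholesterol was 0.03 mg per kcal, and again after 7 weeks on the high-cholesterol, high-fat (HCHF) diet, in which these were 40% and 1.7 mg. Each of the 4 groups of phenotype and diet thus holds 3 libraries from 3 different animals, and each baboon is its own control. Per the study's methods the baboons were chosen as related pairs discordant for LDL-C, and the labels do not say which baboons form a pair.

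LDL particles carry cholesterol through the plasma, and most of them are cleared by the liver through the LDL receptor. The buffy coat is the thin layer between plasma and red blood cells in centrifuged blood, and it holds white blood cells and platelets. White blood cells express their own genes for lipid handling and inflammation, while genes of plasma proteins such as albumin, fibrinogen and plasminogen are transcribed mainly in the liver. The deposited table pairs Ensembl IDs with positions on the PapAnu2 assembly and with no gene symbols. The study's own tables use symbols, among them ALB, FGG and PLG, and which members of the set, if any, are these genes was not determined. For the same reason the labelled tissue could not be checked against markers of blood cells or of other tissues. Members are therefore described by their position, and the 2 members with the most counts also by their ID. In bulk RNA, fewer cells of a type and less RNA per cell cannot be told apart.

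Library totals ranged from 3434663 to 8518159 counts, and 915109 to 3872812 counts were left without the 2 most abundant genes. The 1-chow library had the most counts left, and together with the 6-HCHF library it stood apart from the rest. In these libraries the 2 most abundant genes took 16.8 and 16.3% of the counts, compared with 43.5 to 89.3% in the other 10, and 11282 and 11195 genes had at least 10 counts, compared with 5149 to 10247. The 2-chow library stood apart in the other direction, with 89.3% of its counts on the 2 most abundant genes, 915109 counts left and 5149 genes with at least 10 counts. The labels list 6 index sequences, and each stands for 1 low and 1 high LDL-C library, 1-chow sharing its sequence with 5-chow. The methods describe a single pool. The part of these library differences in the results given here was not tested.

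In the 1-chow library the 178 genes took 163489 counts, or 4.22% of the counts without the 2 most abundant genes (95% Wilson interval 4.20 to 4.24, counting error only). Their levels ran from 5.16 to 10441 CPM with a median of 47.9 CPM and quartiles of 21.9 and 186.4 CPM, compared with a median of 24.5 CPM over all genes with at least 5 CPM in that library. At least 100 CPM was reached by 64 members and at least 1000 CPM by 7. A few genes held much of the set. The member with the most counts took 24.7% of the set's counts, the 10 with the most counts took 52.4%, and the 100 with the fewest took 6.34%. The counts are not corrected for transcript length, so the order of members is an order of counts and not of transcript numbers.

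**Figure D1:**
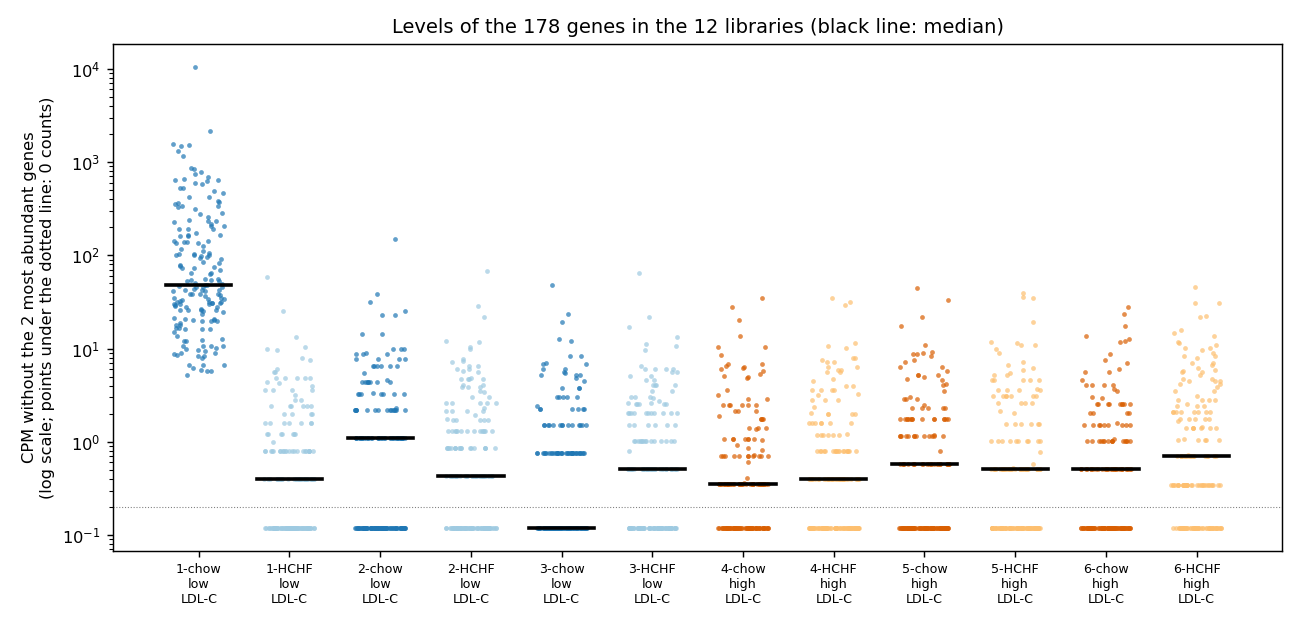
Each point is 1 of the 178 genes in 1 of the 12 libraries, in CPM without the 2 most abundant genes on a log axis, with a black line at the median of each library. Points under the dotted line had 0 counts. The members lie between 5.16 and 10441 CPM in the 1-chow library, where the median is 47.9 CPM, and no other library has a median above 1.09 CPM.

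The member with the most counts was ENSPANG00000005386, on chromosome 5 from 55576941 to 55587962. It had 10441 CPM in the 1-chow library and 58.4 CPM in the 1-HCHF library. Baboon 2 had 150.8 CPM on chow and 68.3 CPM on the HCHF diet, and baboon 3 had 48.0 and 64.7 CPM. In high LDL-C baboons the levels on chow and on the HCHF diet were 34.4 and 34.9 CPM in baboon 4, 44.1 and 39.6 CPM in baboon 5 and 27.8 and 45.2 CPM in baboon 6. The gene was thus read in every library, and the 1-chow library was 69.2 times as high as the next, which was the 2-chow library. The other 10 libraries lay close together, from 27.8 to 68.3 CPM.

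ENSPANG00000023926, on chromosome 19 from 6424141 to 6473574, had the next most counts. Its level was 2159 CPM in the 1-chow library and 25.5 CPM in the 1-HCHF library. Baboon 2 had 38.2 and 28.8 CPM on chow and on the HCHF diet, and baboon 3 had 23.6 and 21.8 CPM. Baboon 4 had 20.4 and 31.5 CPM, baboon 5 had 33.5 and 34.7 CPM, and baboon 6 had 23.6 and 31.1 CPM. As for the first gene, the chow libraries of the 3 low LDL-C baboons differed far more among themselves than any other group. Outside the 1-chow library, the levels of both genes overlapped between diets. Between phenotypes they overlapped for ENSPANG00000023926, while those of ENSPANG00000005386 were higher in all 5 other low LDL-C libraries than in the 6 high LDL-C libraries. Other members with many counts showed the same pattern. The members next in counts lay on chromosome 2 from 152086979 to 152123187 (1549 CPM, highest other library 23.0 CPM), on chromosome 5 from 144075253 to 144086657 (1535 and 25.1 CPM), on chromosome 20 from 54482076 to 54485128 (1475 and 31.7 CPM) and on chromosome 7 from 150523284 to 150535640 (1298 and 14.2 CPM). For all of these the highest other library was the 2-chow library, which had the fewest counts without the 2 most abundant genes.

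For 172 members the 1-chow library could be compared with at least 1 count elsewhere. It was a median of 29.8 times as high as the highest other library, with a range of 10.01 to 157.8. The ratio was above 20 for 119 members, above 50 for 56 and above 100 for 15. Each of these numbers includes the 6 members, described below, that had no counts elsewhere. The highest ratio belonged to a gene on chromosome 1 from 135088367 to 135089338, with 366.4 CPM in the 1-chow library and 2.32 CPM in the next library. This gene overlaps another member, from 135088253 to 135088466, so its counts could have been split between them. The other 6 members had 0 counts in all 11 other libraries. From a floor of 3 counts over those 11 libraries pooled, they were at least 74.9-fold to at least 327-fold higher in the 1-chow library. The member with the last of these values lay on chromosome 14 from 103744572 to 103760811, with 166 counts. At the other end, 41 members had counts in all 12 libraries, and 42 members reached 5 CPM in some other library.

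The 5 members with the highest levels outside the 1-chow library were ENSPANG00000005386, ENSPANG00000023926, the gene of chromosome 20 given above and 2 genes of chromosome 2. Of the last, the gene from 98869755 to 98880615 had 653.3 CPM in the 1-chow library and 35.4 CPM in the 5-HCHF library. The gene from 98809551 to 98824082 had 385.5 CPM and, in the 6-HCHF library, 30.6 CPM.

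The threshold on the ratio fell in a dense part of the range. The members just inside had ratios of 10.01 to 10.74, and the genes just outside had ratios of 9.28 to 9.79. The last member inside lay on chromosome 11 from 52353174 to 52395173 (172.8 CPM, highest other library 17.3 CPM in the 5-chow library), and the first gene outside lay on chromosome 8 from 7564355 to 7581965 (10.1 and 1.03 CPM). At the threshold on the level there was a gap, since no gene that met the ratio lay between 4.13 and 5.16 CPM. The 5 members with the lowest levels had 5.16 to 6.24 CPM, and the next 5 genes that met the ratio had 2.84 to 4.13 CPM.

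The 6-HCHF library held many genes out of the set. Without that library 315 genes met the rule, which is 137 more, an alternative that was chosen after seeing the data. Of the 137 genes, 111 had at least 5 CPM in the 6-HCHF library and 41 were higher there than in the 1-chow library. Their medians were 19.6 CPM in the 1-chow library and 15.3 CPM in the 6-HCHF library. The 178 members are thus the genes read in the first of these libraries and not, or much less, in the second. The 165 genes that the same rule picked in the 6-HCHF library took 22618 counts there, with a median of 17.4 CPM and a highest level of 1055 CPM, so this second set was smaller in counts.

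Outside the 1-chow library the members had low summed counts, which were uneven between single members. Members with 0 counts numbered from 53 in the 6-HCHF library to 93 in the 3-chow library. Over all libraries but 1-chow, ENSPANG00000005386 had 1157 counts and ENSPANG00000023926 had 638. In low LDL-C baboons the summed counts of all members were 737 in the 1-HCHF library. They were 555 and 843 in the 2-chow and 2-HCHF libraries, and 389 and 658 in those of baboon 3. In high LDL-C baboons they were 772 and 776 in the 4-chow and 4-HCHF libraries, 569 and 684 in those of baboon 5, and 535 and 1386 in those of baboon 6. These sums overlapped between the diets and between the phenotypes, and the 6-HCHF library was the highest. Within each of baboons 2 to 6 the sum was higher on the HCHF diet, but these counts are not scaled for library totals. In CPM the sum was lower on the HCHF diet in baboon 2 and higher in baboons 3 to 6. The 5-chow library, which has the same index sequence as the 1-chow library, was with 569 counts within the range of the others.

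As a share of the 163489 counts in the 1-chow library, the sums were 0.238 to 0.516% in the 10 other libraries (median 0.410%) and 0.848% in the 6-HCHF library. Over these 10 libraries the highest sum of counts was 2.17 times the lowest, the highest sum of CPM was 2.24 times the lowest, and the counts without the 2 most abundant genes differed by 3.08 times. The highest sum of CPM, 606.2, was that of the 2-chow library, which had the fewest counts without those genes. The other sums ran from 270.1 to 364.3 CPM in 9 libraries and reached 482.2 CPM in the 6-HCHF library.

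**Figure D2:**
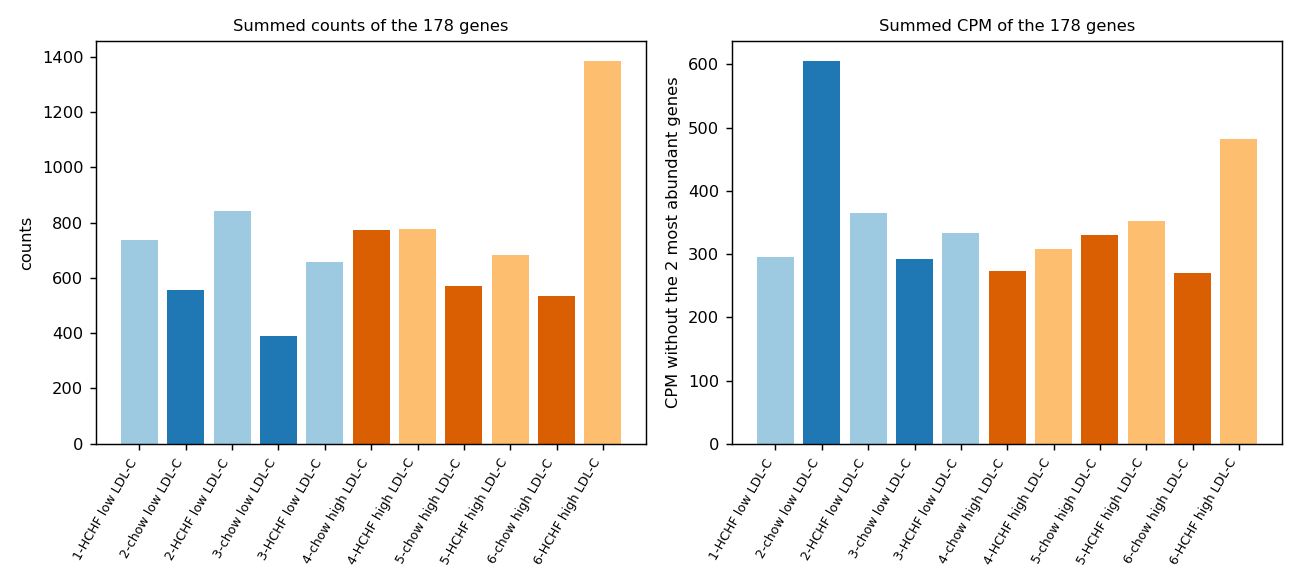
The bars give the sum over the 178 genes in each of the 11 libraries other than the 1-chow library, as counts on the left and as CPM without the 2 most abundant genes on the right. In counts the 6-HCHF library is the highest with 1386, and in CPM the 2-chow library is the highest with 606.2.

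Members with more counts in the 1-chow library also had more counts elsewhere. Across the 178 genes, the Pearson correlation of log10 counts with that library was 0.712 to 0.858 in the 10 other libraries and 0.682 in the 6-HCHF library. These values describe genes, which are not independent, and genes share their transcript length between libraries. The rule also limited each member elsewhere by its own level in the 1-chow library, so part of these correlations is fixed by the rule. When members were divided by their counts in the 1-chow library into 5 parts of 35 or 36 genes, their mean share of those counts in the 10 other libraries was 0.570, 0.569, 0.426, 0.623 and 0.357% from the fewest counts to the most. The share was lowest in the last of these parts, with 922 to 40435 counts a gene in the 1-chow library, and the first, with 20 to 70 counts a gene, was among the higher. In the 6-HCHF library the same parts gave 1.206, 1.835, 1.601, 1.572 and 0.667%.

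Single members still departed from a common share. Of the 36 members with at least 900 counts in the 1-chow library, 32 had a median share under 0.5% over the 10 other libraries, and the range was 0.109 to 1.49%. The 2 members above 1% were the gene on chromosome 2 from 98869755 to 98880615 (1.41%) and a gene on chromosome 14 from 15470565 to 15493248 (1.49%). In the 6-HCHF library, 9 of the 36 were above 1%, and the highest was the same gene of chromosome 14 with 6.40%. The next highest was the gene on chromosome 2 from 98809551 to 98824082 with 5.89%, compared with a median of 0.335% in the 10 other libraries.

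**Figure D3:**
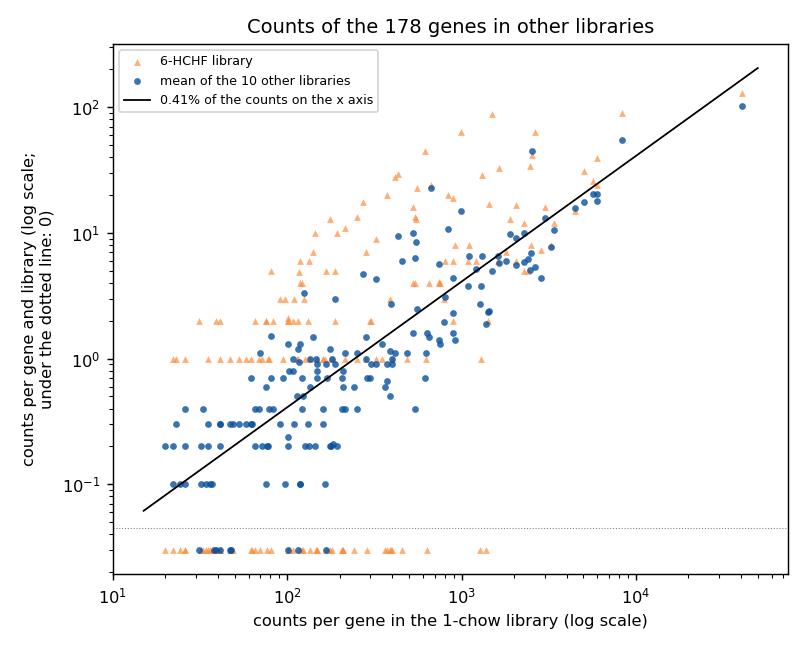
Each of the 178 genes is drawn by its counts in the 1-chow library and by its counts in other libraries, both on log axes, with the mean of 10 libraries as circles and the 6-HCHF library as triangles. The line marks 0.410% of the counts on the x axis, and symbols under the dotted line are at 0. The circles rise along the line, and the triangles scatter more widely and often lie above it. The rule limited each member elsewhere by its own level in the 1-chow library, so part of the rise is fixed by the rule.

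The members were spread over 21 chromosomes, from 1 member on chromosome 18 to 21 on chromosome 1, with 17 on chromosome 11 and 16 on chromosome 2. As a share of the genes with at least 5 CPM in the 1-chow library, they made up 3.92% on chromosome 5, 3.32% on chromosome 9 and 3.05% on chromosome 2, compared with 1.82% over all chromosomes and 0.610% on chromosome 10. The mitochondrial genome held no member among its 25 genes with at least 5 CPM. None lay on the unplaced scaffolds, whose 1345 genes had no counts in any library.

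Many members were neighbors. A run was defined as at least 3 members with less than 500 kb between neighbors. There were 13 runs on 9 chromosomes, which held 49 members and 30.8% of the set's counts in the 1-chow library. Another 34 members formed 17 pairs under the same distance, and 95 stood alone. The spans of the runs held 30 other genes, of which 16 had at least 5 CPM in the 1-chow library and 8 had 0 counts there. The genes of 5 runs were all members.

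The run with the most members lay on chromosome 7 from 150432033 to 150791785, where 7 of 10 genes were members with 9.55 to 1298 CPM. Its levels differed widely between neighbors. The gene from 150523284 to 150535640 had 5026 counts in the 1-chow library and 206 in the other 11 together, while the gene from 150432033 to 150441316 had 116 counts and 1, and the gene from 150781325 to 150791785 had 37 counts and 1. Next came a run on chromosome 3 from 40948203 to 41311064 with 5 of 9 genes, led by the gene from 41095942 to 41125628 with 737.7 CPM.

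The run with the most counts lay on chromosome 5 from 144057860 to 144108616 and held 8.44% of the set's counts in 50.8 kb. All 3 genes of this span were members, with 1158, 1535 and 870.4 CPM in the order of their positions. In the 1-chow library they took 32.5, 43.1 and 24.4% of their summed counts. The other 11 libraries had 8 to 27 counts of the first gene, 10 to 37 of the second and 7 to 13 of the third, and the order of the 3 genes by counts was that of the 1-chow library in 6 of 12 libraries, that library included. Over the 11 libraries the run had 497 counts in all, or 3.60% of its counts in the 1-chow library.

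In 4 more runs each gene of the span was a member. On chromosome 2 the run from 82415695 to 82468941 had 229.5 to 778.2 CPM and 227 counts in the other 11 libraries, or 4.44% of its counts in the 1-chow library. The second run of chromosome 2, from 98809551 to 98880615, had 135.4 to 653.3 CPM and 744 counts elsewhere, or 16.4%, so its restriction to a single library was much weaker. On chromosome 11 the 4 genes from 7198301 to 7256669 had 30.2 to 424.7 CPM, and on chromosome 1 the 4 genes from 166916509 to 167336359 had 20.9 to 337.2 CPM. The remaining runs held 4 members on chromosome 11 from 20367826 to 21287556, 4 on chromosome 4 from 155427538 to 155950863, and 3 each on chromosome 11 from 51953929 to 52527852, on chromosome 14 from 106142981 to 106189971, on chromosome 19 from 35157319 to 35425735, and also on chromosome 5 from 90433503 to 90684005. Among them the run of chromosome 11 from 51953929 had the highest share elsewhere, 26.4%, and the run of chromosome 5 from 90433503 had the lowest of all 13, 2.05%. Members overlapped each other in the runs of chromosomes 4 and 19, where reads could have been divided between genes. For comparison, the 165 genes restricted to the 6-HCHF library held 2 runs with 7 genes, a description of sets of similar size with no test.

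**Figure D4:**
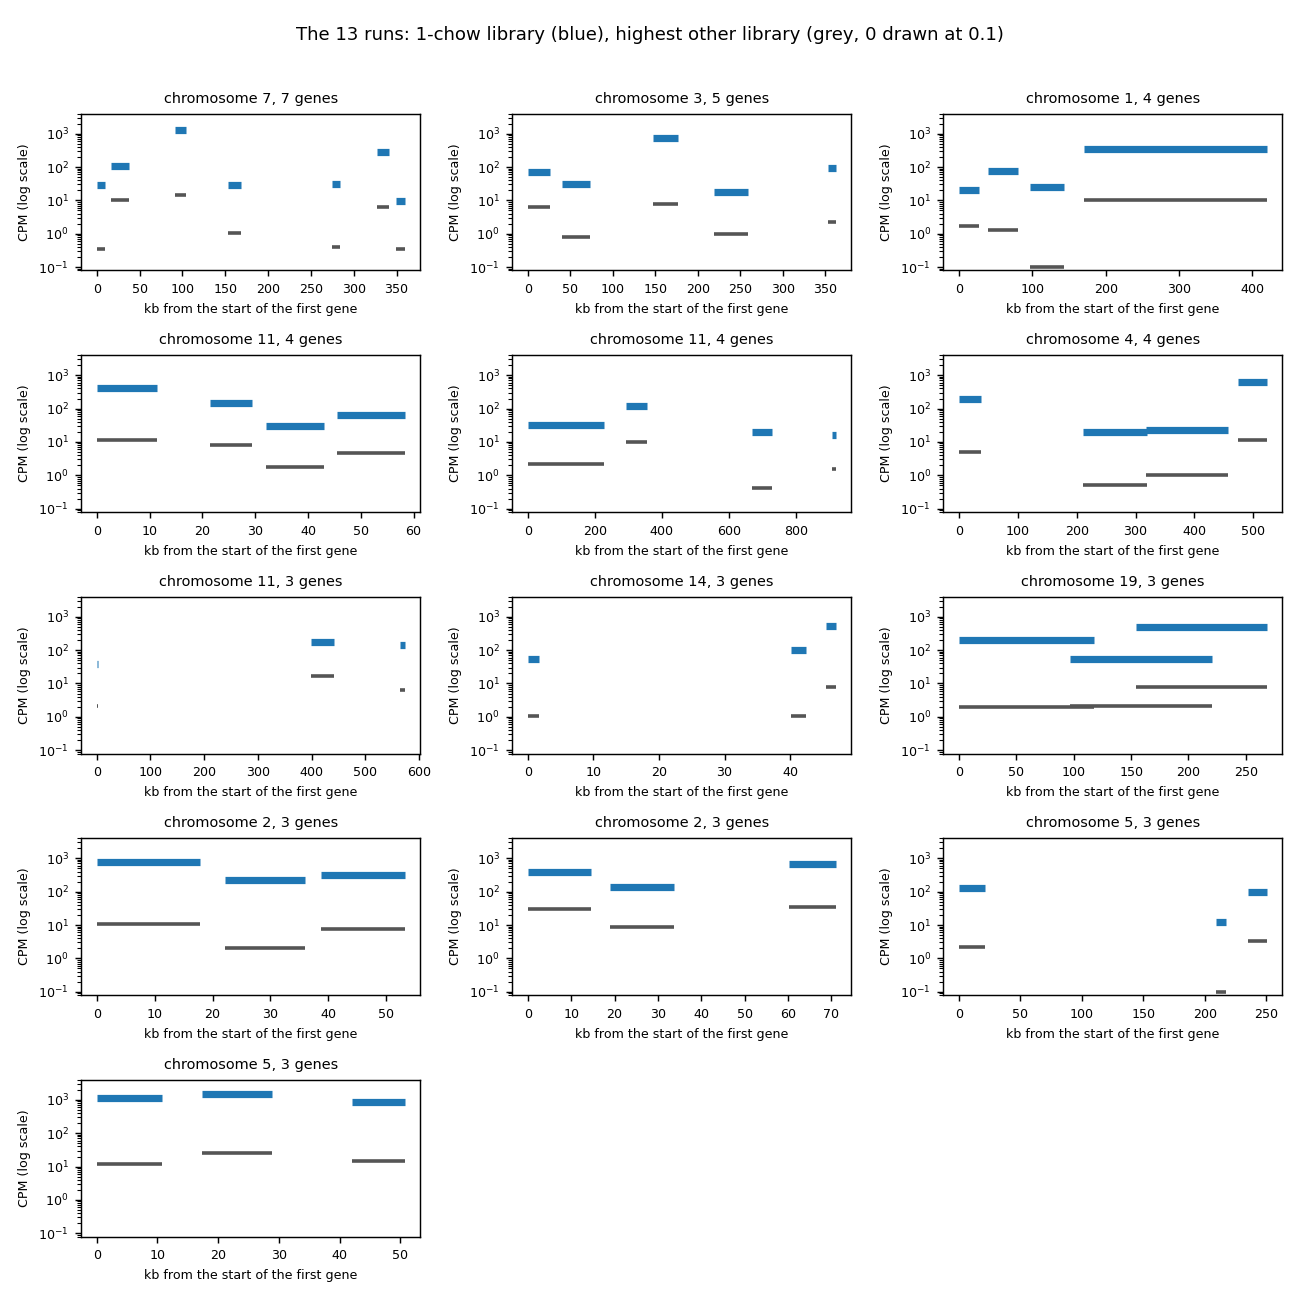
Each panel is 1 of the 13 runs, with the distance in kb from the start of its first member on the x axis and CPM without the 2 most abundant genes on a log y axis. Blue bars are the extents of the members at their level in the 1-chow library, and grey bars are at the level of the highest other library, with 0 drawn at 0.1. In every panel the blue bars lie at least 10 times above the grey bar of the same gene, as the rule requires, and neighbors within a run differ in level.

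Most members had a single transcript in the files. This was so for 164 of 178, and 14 had more than 1, which is 7.87% of members compared with 12.1% of the genes with at least 5 CPM in the 1-chow library and 6.16% of all genes. The median extent on the genome was 18.2 kb for members and 24.4 kb for the genes with at least 5 CPM. Of the 14, 7 had at least 90% of their counts in the 1-chow library on 1 transcript and 7 did not. Counts of transcripts of the same gene are estimates that divide shared reads.

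The transcript used could differ between the 1-chow library and the rest. The gene on chromosome 14 from 15470565 to 15493248, whose median share elsewhere was the highest of the 36, had 98.7% of its 987 counts in the 1-chow library on 1 transcript. In the other 11 libraries pooled, that transcript held 48.0% of 213 counts and the other transcript 52.0%. The second transcript thus had 12.4 counts in the 1-chow library and 110.6 in the others together. A gene on chromosome 4 from 51891773 to 51942651 had all of its 1297 counts in the 1-chow library on 1 transcript, which held 81.4% of 38.9 counts elsewhere.

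Other genes divided their counts more evenly. The gene on chromosome 9 from 125039511 to 125172945 had 63.4 and 36.6% of its 2505 counts on its transcripts, and 55.3 and 44.8% of the 77 counts elsewhere. A gene of the run on chromosome 19, from 35311907 to 35425735, had 63.3, 29.0 and 7.74% of its 1884 counts on 3 transcripts, and 30.6, 45.3 and 24.1% of 110.5 counts elsewhere. A gene on chromosome 2 from 114732485 to 114765672 had 87.2% of its 414 counts on its main transcript in the 1-chow library and 86.0% of 39 counts elsewhere. For the other 9 of the 14 genes the libraries besides 1-chow held at most 22.5 counts a gene, too few to compare the use of transcripts.

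The diet response in low LDL-C baboons contrasts the chow and HCHF libraries of baboons 1 to 3, and so contains the library that picked the members. In baboon 1 all 178 members were lower on the HCHF diet, and their summed CPM was 143 times as high on chow as on the HCHF diet (42215 and 295.0 CPM). In baboon 2, 82 members were lower and 49 higher on the HCHF diet, and the sums were 606.2 CPM for chow and 364.3 for HCHF. Its summed counts were 555 for chow and 843 for HCHF, so the decrease of the summed CPM rested on the different totals. A single count was 1.09 CPM in the 2-chow library and 0.432 CPM in the 2-HCHF library, which also enters the numbers of members lower and higher. In baboon 3, 53 were lower and 72 higher, and the sums were 291.6 and 332.6 CPM. The decrease of the set was thus that of baboon 1, while baboon 3 went slightly the other way. In high LDL-C baboons the sums on the HCHF diet were 1.12, 1.07 and 1.79 times those on chow in baboons 4, 5 and 6.

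A filter of at least 1 CPM on average left 11579 genes, among them 151 of the 178 members. Of these 151, 39 also passed without the libraries of baboon 1, and 112 passed only with them. The other 27 members, with 20 to 49 counts in the 1-chow library, were not tested. With edgeR's quasi-likelihood test, a term for each baboon and Benjamini-Hochberg adjustment, 0 genes, or 0% of those tested, passed an FDR of 20% in low LDL-C baboons. The lowest adjusted p from edgeR was 0.267 over all genes and 0.287 over the members. At an unadjusted p under 0.05, 494 genes were lower on the HCHF diet, or 4.27% of all tested, and 120 of them were members. None of the 206 genes that were higher was a member. DESeq2 called 11 genes lower at the FDR of 20%, of which 9 were members, and 4 genes higher, of which 0 were members. Since the rule used this contrast, these counts describe how the set enters the decreases and test nothing about its members.

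Among the large decreases the set was a major part. At least 5-fold lower at an unadjusted p under 0.05 were 250 genes, or 2.16% of all tested, of which 119 were members. Of the 35 strongest decreases by fold change among genes with an unadjusted p under 0.05, 18 were members. In baboon 1 the 119 members held 76.9% of the summed CPM that the 250 genes lost between chow and the HCHF diet. Over all genes with a decrease in baboon 1, the 178 members lost 41920 of 228280 CPM, or 18.4%. Of the 131 other genes among the 250, 74 had their highest level in the 1-chow library and 48 in the 6-HCHF library, and for 107 these libraries were the highest and the next highest. Their medians were 18.3 CPM in the 1-chow library and 14.3 CPM in the 6-HCHF library, and 82 of the 131 failed the rule only through the latter.

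The fitted fold changes were smallest for the members with the most counts. The 151 tested members had log2 fold changes from -8.11 to -1.07 with a median of -3.98, compared with -0.04 over all genes, and all 151 were negative in edgeR and 144 in DESeq2. In the same 5 parts, from the fewest counts to the most, the median was -4.05, -4.61, -4.66, -3.99 and -3.07, and the members had counts in a median of 2, 4, 5, 9 and 11 of the other libraries. The number with an unadjusted p under 0.05 in edgeR was 7 of 9, 31 of 35, 31 of 36, 30 of 35 and 21 of 36. Of the 10 members with the most counts, 8 did not reach it. ENSPANG00000005386 had a log2 fold change of -2.21 (unadjusted p = 0.118, adjusted p = 0.851 from edgeR), while the log2 ratio of the HCHF to the chow level was -7.48 in baboon 1, -1.14 in baboon 2 and 0.43 in baboon 3. ENSPANG00000023926 had a log2 fold change of -1.92 (unadjusted p = 0.0887, adjusted p = 0.845 from edgeR), with -6.40, -0.41 and -0.11 in baboons 1, 2 and 3. The members read most were not those with the lowest p. For both named genes the difference between baboons was larger than the average change. The rule used this contrast, and 112 of the 151 members passed the filter only with baboon 1. These values thus describe the members and test nothing about them.

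The calls in low LDL-C baboons depended on which animals were included. Without baboon 2, 609 genes, or 5.15% of 11831, passed the FDR of 20% as lower in edgeR, of which 116 were members. Without baboon 3, 49 genes, or 0.417% of 11738, did so, and 43 were members. Without baboon 2 another 407 genes passed as higher, and 0 of them were members. In both fits the 1-chow library made up a larger part of the contrast, and the first also left out the 2-chow library. The part of each change in these calls was not tested.

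Without baboon 1 the 1-chow library is absent, and the contrast holds baboons 2 and 3. The rule limited the levels of members in these libraries too, so the counts of members are given with nothing read from them. Of 11327 genes left by the filter 39 were members, of which 25 had a negative log2 fold change. At the FDR of 20% edgeR called 0 genes. At an unadjusted p under 0.05, 209 genes were lower, or 1.85% of those tested, and 1 of the 39 members was among them. This member, on chromosome 5 from 144075253 to 144086657 in the run with the most counts, had 25.1 CPM in 2-chow and 10.4 in 2-HCHF, and 12.7 CPM in 3-chow and 5.05 in 3-HCHF. It was lower on the HCHF diet in both animals, with a log2 fold change of -1.39 (unadjusted p = 0.0324, adjusted p = 1 from edgeR). Its counts were 23 and 24 in baboon 2 and 17 and 10 in baboon 3, so the decrease in CPM of baboon 2 rested on the different totals. Higher were 72 genes, or 0.636% of those tested, and 0 were members. At least 5-fold lower were 29 genes, or 0.256% of those tested, and 0 of them were members. With 39 members tested, shares of this size leave few or no members to be seen.

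**Figure D5:**
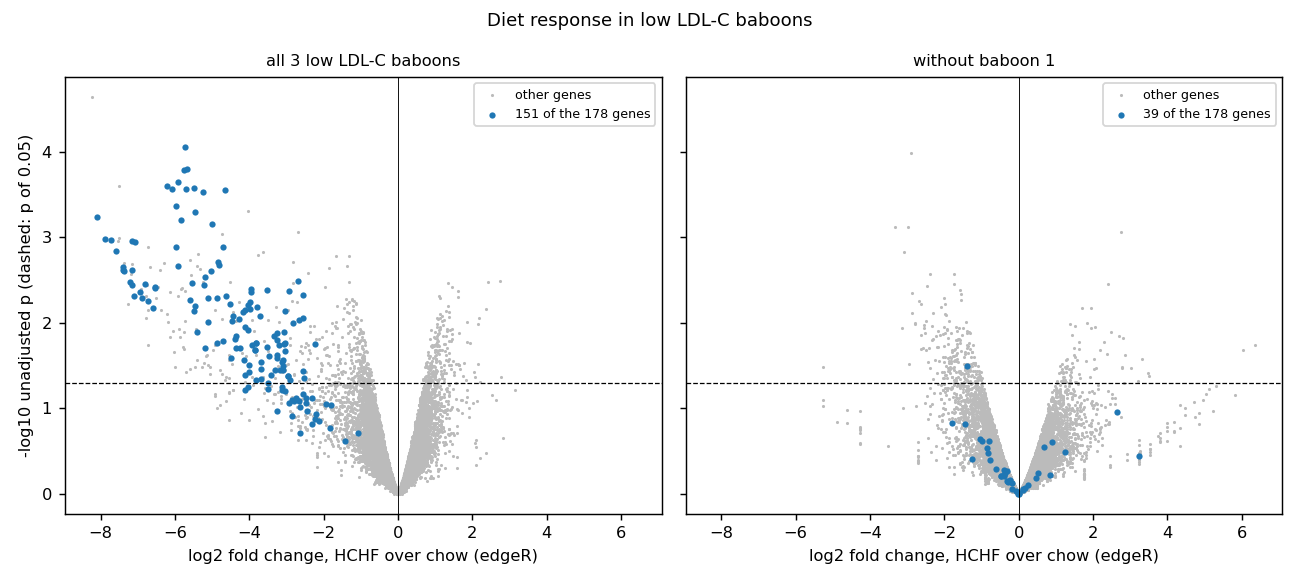
For each gene tested, the log2 fold change of the HCHF over the chow diet in low LDL-C baboons is drawn against the negative log10 of the unadjusted p from edgeR, with members in blue and other genes in grey. With all 3 baboons (left) the 151 members tested lie between -8.11 and -1.07. Without baboon 1 (right) the 39 members tested lie between -1.795 and 3.24, with 1 past the dashed line at an unadjusted p of 0.05.

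The diet response of high LDL-C baboons does not contrast the library of the rule. The rule limited the levels of members in these libraries, however, and 112 of the 151 members tested passed the filter only with baboon 1, so the counts of members called are given with nothing read from them. At the FDR of 20%, 13 genes were up-regulated on the HCHF diet in edgeR, or 0.112% of those tested, and 0 of the 151 members were among them. At an unadjusted p under 0.05, 327 genes were higher, or 2.82%, and 7 of them were members, while 175 were lower, or 1.51%, and 0 were members. The member with the lowest p of the 7, on chromosome 2 from 114732485 to 114765672, was at 0 counts in the chow libraries of baboons 4, 5 and 6 and at 0, 1 and 28 counts in their HCHF libraries (unadjusted p = 0.0113, adjusted p = 0.900 from edgeR). A member on chromosome 11 from 102111089 to 102181202 had 1, 0 and 2 counts in the chow libraries and 0, 1 and 45 in the HCHF libraries of baboons 4, 5 and 6 (unadjusted p = 0.0389, adjusted p = 1 from edgeR). A member on chromosome 4 from 31282444 to 31301521 had 1, 1 and 0 counts in the chow libraries and 1, 2 and 20 in the HCHF libraries of the same animals. In each of these 3 members most of the counts came from the 6-HCHF library. By contrast, a member on chromosome 2 from 49211655 to 49257815 had 0 counts in each chow library and 3, 1 and 2 in the HCHF libraries of baboons 4, 5 and 6 (unadjusted p = 0.0487, adjusted p = 1 from edgeR). Without baboon 6, 154 genes, or 1.38% of those tested, were higher at an unadjusted p under 0.05, and 0 of the 155 members tested were among them.

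On the HCHF diet the high LDL-C baboons were compared with the low LDL-C baboons in 6 libraries, none of them the library of the rule, and 148 members were tested. No gene passed the FDR of 20% in edgeR (lowest adjusted p = 0.827), compared with 41 genes in DESeq2, of which 0 were members. DESeq2 left 6537 of the 11576 adjusted p-values as NA, and such genes could not be called. At an unadjusted p under 0.05 in edgeR, 467 genes were higher in high LDL-C baboons, or 4.03%, and 2 of them were members, while 220 were lower, or 1.9%, and 5 were members. Here too the rule limited the levels of members in all 6 libraries, and nothing is read from these counts. One of the 5 was ENSPANG00000005386, with 58.4, 68.3 and 64.7 CPM in the HCHF libraries of baboons 1 to 3 and 34.9, 39.6 and 45.2 CPM in those of baboons 4 to 6. The groups did not overlap, and the log2 fold change of high over low LDL-C baboons was -1.06 (unadjusted p = 0.0142, adjusted p = 0.827 from edgeR), which did not pass the correction. Another was a member on chromosome 16 from 57894882 to 57916005, with 7.60, 5.76 and 5.56 CPM in baboons 1 to 3 and 3.97, 2.58 and 4.17 CPM in baboons 4 to 6 (log2 fold change -1.20, unadjusted p = 0.0483, adjusted p = 0.827 from edgeR). Of the members that were higher in high LDL-C baboons, the gene of chromosome 14 from 15470565 to 15493248 had 10.1, 9.80 and 22.0 CPM, compared with 3.62, 6.51 and 2.62 CPM in baboons 1 to 3 (log2 fold change 1.30, unadjusted p = 0.0342, adjusted p = 0.827 from edgeR). The gene of chromosome 2 from 98809551 to 98824082 had 3.57 and 3.60 CPM in baboons 4 and 5 and 30.6 CPM in baboon 6, so its difference rested largely on the 6-HCHF library.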

How the data were processed

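The authors made FASTQ files with CASAVA 1.8, trimmed the paired-end reads, used STAR 2.3.1j for alignment to the Ensembl PapAnu2 transcriptome (release 76) and deposited expected counts per transcript, estimated by expectation maximization in Partek, for 29300 transcripts of 27533 genes. These expected counts are not scaled for length or depth. Reads, TPM values and miRNAs were not analysed here.

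Counts were summed per gene, and members were chosen on CPM without the 2 most abundant genes. The members, lists and tests were chosen with earlier results of these data known. For tests, counts were rounded, genes averaging at least 1 CPM were kept, and edgeR 4.0.16 (TMM, glmQLFit, glmQLFTest, two-sided) was run in R 4.3.3 with limma 3.58.1, a term for each baboon and Benjamini-Hochberg adjustment over all genes. The phenotypes on the HCHF diet were compared over 6 libraries without that term. Calls needed both an unadjusted p under 0.05 and an FDR of 20%. The scripts were tested on simulated data.

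The animal labels pair the libraries. Across genes, deviations from the group means correlated between both libraries of an animal, with 0.188, 0.0805, 0.242, 0.397, 0.254 and 0.138 for baboons 1 to 6.

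The rule for named genes took the 10 members with the most counts, those next to each threshold, those highest in other libraries, those in runs and those with more than 1 transcript. Lists of blood, liver and other tissue genes could not be applied, because the files do not pair IDs with symbols. Members described in the comparisons of high LDL-C baboons were chosen after their values were seen. Alternatives were other filters, thresholds and scalings, DESeq2 1.42.0, no term for the baboon and leaving out each baboon or library.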

Additional observations from a re-analysis of the deposited data

How the results depend on the processing

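Without each of baboons 2 to 6 in turn the rule gave 180 to 322 genes, the last without baboon 6 (without baboon 1 the rule cannot be applied), and 315 without its HCHF library alone. With other thresholds it gave 184 genes at 2 CPM, 160 at 10 CPM, 225 at more than 5 times and 119 at more than 20 times. With TMM factors in the CPM it gave 145 genes. Of the full library total the members held 3.51% in the 1-chow library. Counts of calls moved widely. In low LDL-C baboons edgeR called 0 genes, compared with 700 (120 members) at an unadjusted p, 291 (132 members) with no filter, 15 (9 members) in DESeq2, which left 1572 adjusted p-values as NA, and 0 to 1016 (0 to 116 members) without each baboon in turn. The 250 genes at least 5-fold lower, with 119 members, became 0 and 0 at the FDR of 20%, 82 and 52 with a mean of 5 CPM as filter, 71 and 41 in DESeq2, 29 to 358 and 0 to 146 without each baboon in turn, and 28 and 0 without baboons 1 and 6, chosen after seeing the data. Without baboon 1, 0 genes were called and 281 had an unadjusted p under 0.05.

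In high LDL-C baboons the 13 calls became 502 (7 members) at an unadjusted p, 217 (7 members) with no filter, 2 with a mean of 5 CPM as filter, 3 in DESeq2, 2 on the total without the 2 most abundant genes, 1 without baboons 1 and 6, and 0 to 45 without each baboon in turn. Between the phenotypes on the HCHF diet they were 687 (7 members) at an unadjusted p, 380 (1 member) with no filter, 41 in DESeq2 and 7 without baboons 1 and 6. On the total without the 2 most abundant genes the median of all genes in low LDL-C baboons was -0.28 in place of -0.04 (log2), and the tested members stayed negative. With no term for the baboon, so without the pairing, 0 genes were called in either phenotype, and 292 genes were at least 5-fold lower in low LDL-C baboons, 147 of them members. No fit with this term was possible between the phenotypes, since each baboon has 1 phenotype. In the 3-chow library the members had 389 counts in all and a median of 0 CPM, so differences among the other libraries were not detectable at this depth for most single members.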
